A study of Mus musculus with 12 samples.

Results

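A set of 10 genes of the methionine cycle and the transsulfuration pathway was followed in mouse liver: Mat1a, Mat2a, Gnmt, Nnmt, Ahcy, Mtr, Bhmt, Bhmt2, Cbs and Cth. They were chosen by name, as the enzymes fed by dietary methionine, and all 10 of 10 were found among the 11791 genes measured. In this cycle methionine is joined to ATP to make S-adenosylmethionine (SAM), the methyl donor of most methylation reactions. Methyl transfer leaves S-adenosylhomocysteine, which is split into adenosine and homocysteine. Homocysteine is either methylated back to methionine, with folate or betaine as the donor, or carried through cystathionine to cysteine, a precursor of glutathione and taurine. The liver handles much of the body's methionine, and betaine is made there from choline.

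Bulk liver RNA was sequenced from male mice aged 10 weeks kept for 3 weeks on feed without methionine and choline (the MCD diet), which causes steatohepatitis. Each library was an equal mix of RNA from 2 animals, and each group had 4 such pools. The KO group carried Lyzs cre, a Cre recombinase driven by the lysozyme 2 gene in myeloid cells, and was a knockout, within those cells, of the stress kinases p38γ and p38δ (p38g/d in the labels). The anti-Ly6G group had the same Cre and was given an antibody to Ly6G, a neutrophil surface protein, although the titles of these samples read GR1. The control group carried Lyzs cre alone. All groups shared the Cre, the diet and the strain label C57BL/6, and no group on another diet is analysed here, so the values compare MCD-fed livers with each other and do not measure the effect of the diet. The mitochondria label was C57 in KO pools 1 and 2, NZB in KO pools 3 and 4, NZB in all 4 anti-Ly6G pools and C57 in all 4 control pools. The label text also gives 12 males per genotype, which 4 pools of 2 animals do not account for, and p-values measure the spread between pools.

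Depth was 18.8 to 22.3 M reads per pool in KO, 13.1 to 21.0 M in anti-Ly6G and 14.4 to 19.9 M in control, and pools of 1 group correlated at 0.977 to 0.991 over all genes on the log2 scale. Levels are the authors' normalized signal, reads divided by a scaled library size, in which 3 reads are worth 0.125 to 0.242. Such a floor covers counting error only. Mapk12, which encodes p38γ, had a signal of 1.63, 1.79, 2.70 and 3.06 in KO pools and of 2.08, 1.75, 2.14 and 2.71 in control pools. These ranges overlapped, and Mapk13, which encodes p38δ, was not found by that name among the genes measured. The knockout itself is therefore not seen in these data. Whole liver holds many cells in which the Cre is not active, and their part in the Mapk12 values was not tested. Fewer cells of a type and less RNA per cell cannot be told apart in these bulk samples. The 10 hepatocyte markers summed to a signal of 102474 to 127552 in KO, 104249 to 142244 in anti-Ly6G and 110371 to 128638 in control pools, all of them abundant. Alb made up most of each sum, with a mean of 79178 in KO, 96215 in anti-Ly6G and 85592 in control pools. Between anti-Ly6G and control, 2 of the 10 passed as lower and 0 as higher (limma, adjusted p under 0.05), beside 15.3% of all genes lower. Of 12 macrophage markers, 6 passed as lower in anti-Ly6G than in control pools and 0 as higher (limma, adjusted p under 0.05), and 15.3% of all genes passed as lower there. The macrophage markers had a median log2 difference of -0.68, with sums of 279.5 to 384 in anti-Ly6G, 721 to 969.8 in KO and 467 to 869 in control pools. Of 11 stellate and fibroblast markers, 6 passed as lower in anti-Ly6G than in control pools and 0 as higher, with a median of -0.55 and sums of 269 to 422 in anti-Ly6G, 473 to 584 in KO and 357 to 531 in control pools. Of these 12 and 11 markers, 8 and 7 passed as higher in KO than in anti-Ly6G pools, beside 13.6% of all genes. Between KO and control 0 of 12 and 1 of 11 passed, beside 1.12% of all genes, with medians of 0.38 and 0.51. The 4 neutrophil markers measured (of 12 listed, the others, Ly6g among them, not found among the genes measured) were low. Their sums were 6.30 to 10.7 in anti-Ly6G, 17.4 to 20.9 in KO and 12.5 to 21.4 in control pools. Against control, 3 of these 4 passed as lower in anti-Ly6G pools and 0 as higher, beside 15.3% of all genes lower. Cxcr2 did not pass, at a mean of 1.81 in anti-Ly6G and 1.85 in control pools. The part of these other cell types in the changes given here was not tested.

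Each comparison was a limma fit over all genes with p adjusted over all 11791. Between KO and control, 0 of the 10 genes passed at 0.05, against 1.12% of all genes (0.585% higher and 0.534% lower), and 1 of 10, Ahcy, had an unadjusted p under 0.05. Between anti-Ly6G and control, 3 of 10 passed (1 higher, Mat2a, and 2 lower, Ahcy and Cth), against 30.4% of all genes, 15.1% higher and 15.3% lower. Between KO and anti-Ly6G, 3 of 10 passed (1 higher, Cth, and 2 lower, Mat2a and Gnmt), against 26.8% of all genes, 13.6% higher and 13.1% lower. The share of the 10 genes that passed was therefore near that of all genes in each comparison. The pools of the groups did not overlap for 1 of 10 genes between KO and control (12.4% of all genes), for 3 of 10 between anti-Ly6G and control (27.3%) and for 2 of 10 between KO and anti-Ly6G (27.3%). The median log2 fold change of the 10 genes was -0.10, -0.04 and 0.03 in these comparisons, beside -0.00, -0.00 and -0.01 for all genes. The anti-Ly6G pools enter 2 of the 3 comparisons, as do the other groups, so the comparisons share samples.

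**Figure D1:**
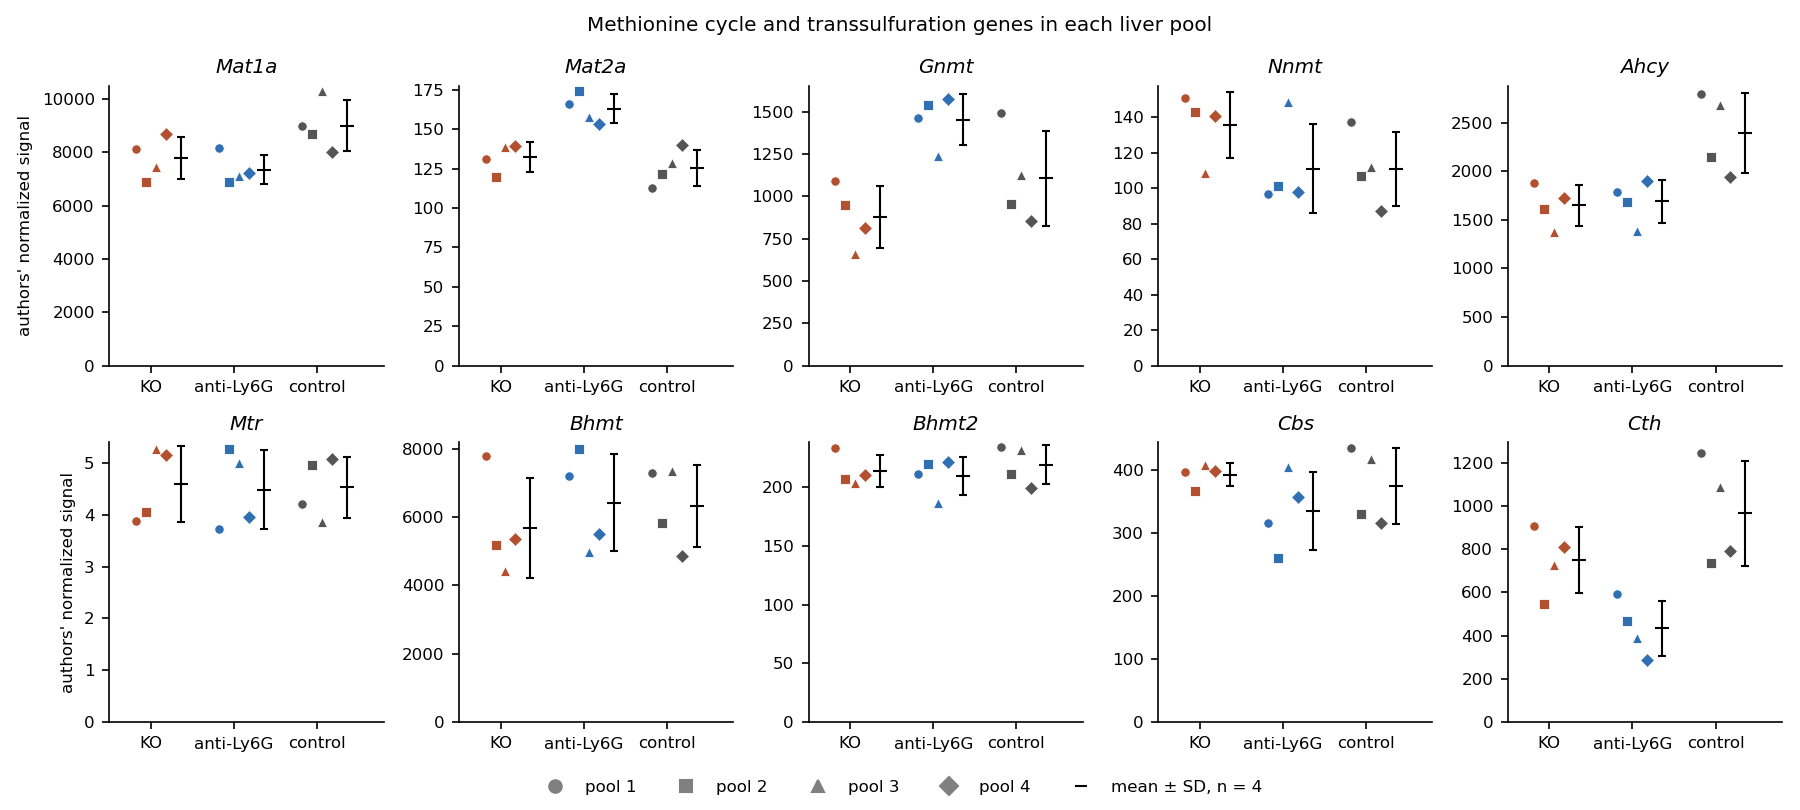
Authors' normalized signal (linear axes from 0) of each of the 10 genes in the 4 KO, 4 anti-Ly6G and 4 control pools, with the mean and SD of each group. Cth and Ahcy sit lower in all 4 anti-Ly6G pools than in any control pool, Mat2a sits higher in all 4, and Mtr stays between 3.73 and 5.28 in every pool.

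Set per kilobase of transcript, the levels of the 10 genes differed widely in every group. Bhmt stood at 2285 ± 588 per kb in KO, 2579 ± 571 in anti-Ly6G and 2541 ± 486 in control pools (SD, n = 4 each). Mat1a stood at 2242 ± 228 per kb in KO, 2117 ± 159 in anti-Ly6G and 2594 ± 277 in control pools. The pools of these 2 genes overlapped in each group, so neither was ranked above the other. Below them came Gnmt at 849 ± 179.5, 1405 ± 146 and 1070.2 ± 272 per kb in KO, anti-Ly6G and control pools, and Ahcy at 648 ± 83.3, 665 ± 86.4 and 940.5 ± 163. Gnmt and Ahcy overlapped in KO and in control pools and were apart in anti-Ly6G pools, where the lowest Gnmt value was 1198 and the highest Ahcy value 747 per kb. Cth followed at 413 ± 84.3 per kb in KO, 239 ± 70.8 in anti-Ly6G and 532 ± 134 in control pools, below every Ahcy pool of its own group. With the longest principal transcript of each gene, Nnmt, Bhmt2, Cbs and Mat2a lay between 40.1 and 145 per kb. The place of Cbs depended on the transcript used, since its principal transcripts run from 2.533 to 6.226 kb, and on the shortest it averaged 155 per kb in KO, 132 in anti-Ly6G and 148 in control pools. Mtr was lowest, at 0.554 ± 0.0879 per kb in KO, 0.542 ± 0.0917 in anti-Ly6G and 0.547 ± 0.0709 in control pools.

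SAM is made by methionine adenosyltransferase, whose catalytic subunit comes from Mat1a in adult hepatocytes and from Mat2a in most other cells and in dividing or dedifferentiated hepatocytes. Mat1a (ENSMUSG00000037798) lies on the plus strand at chr14:41105035-41124412 of GRCm38, and all of its 25-base words (100%) occur in no other annotated gene. Mat2a (ENSMUSG00000053907) lies on the minus strand at chr6:72432799-72439558, overlaps the transcript Particl on the other strand, and has 78.0% unique words. It shares 11.4% of its words with the processed pseudogene Gm9523 and 10.5% with Particl. Since a strand setting is not given in the sources used here, reads from the stretch shared with Particl cannot be assigned to either gene. RefSeq promoter windows of GRCm38.p6 (250 bases before to 50 after the start) matched 7 of the 10 genes (Ahcy, Bhmt, Bhmt2, Cbs, Gnmt, Mat2a and Mtr), while Cth, Mat1a and Nnmt had no window there. The 250 bases before the start are printed for the genes with a window that passed a test, and the first of these is Mat2a at chr6:72439557-72439806, minus strand, 5′ to 3′. Capitals mark the CCAAT box, the GC box GGGCGG and the TATA box TATAAA, each read on either strand.
Mat2a: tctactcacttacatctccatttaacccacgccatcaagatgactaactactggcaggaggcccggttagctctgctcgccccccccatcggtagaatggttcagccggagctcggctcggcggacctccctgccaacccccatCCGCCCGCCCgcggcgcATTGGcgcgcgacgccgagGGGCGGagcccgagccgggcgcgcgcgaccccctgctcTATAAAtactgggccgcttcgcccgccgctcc
In the Mat2a window TATAAA stood at -32 to -27, GGGCGG began at -106, -102 and -70 (the first pair overlap by 2 bases, on the minus strand), and CCAAT was read on the minus strand at -89 to -85. Of 32851 promoter windows, 13.6% held TATAAA, 35.7% GGGCGG and 37.4% CCAAT, and Mat2a was the only 1 of the 7 matched genes with TATAAA, while GGGCGG stood in 5 and CCAAT in 6. The word TGATGNAA, a form of the amino acid response element, was in 0 of the 7 windows and in 3.97% of all, and CACGTG was in 1 of the 7 (Cbs) and in 7.15% of all.

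Mat2a had a signal of 166, 174, 158 and 153 in anti-Ly6G pools 1 to 4, and of 113, 121, 129 and 139.7 in control pools 1 to 4. Every anti-Ly6G pool was above the highest control pool. The increase was 1.30-fold (95% interval 1.16 to 1.46), or 0.38 on the log2 scale (SE 0.08, limma adjusted p = 0.00332). In KO pools Mat2a had a signal of 131, 119.6, 139 and 139, all within the control range, and the log2 difference from control was 0.08 (95% interval -0.09 to 0.25, adjusted p = 0.632, limma). Every KO pool was below the lowest anti-Ly6G pool, with a log2 difference of -0.30 (SE 0.08, adjusted p = 0.0130, limma). Mat2a varied little within a group, by a CV of 6.97% in KO, 5.64% in anti-Ly6G and 9.13% in control pools.

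Mat1a had a signal of 8139, 6876, 7124 and 7223 in anti-Ly6G pools, 8112, 6875, 7425 and 8683 in KO pools, and 8985, 8673, 10303 and 8018 in control pools. The lowest control pool lay inside the range of both other groups. The log2 difference from control was -0.29 in anti-Ly6G (95% interval -0.55 to -0.03, adjusted p = 0.0867, limma) and -0.21 in KO pools (-0.47 to 0.05, adjusted p = 0.373), and neither passed. KO and anti-Ly6G pools differed by 0.08 (adjusted p = 0.660, limma). Mat1a passed in anti-Ly6G under 3 other settings, with adjusted p of 0.0374 when every pool was rescaled to the same total, 0.0487 in edgeR and 0.0116 in DESeq2.

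The ratio of the SAM synthase genes was read within each pool, which takes out the scaling of the library. On the log2 scale Mat2a minus Mat1a was -5.61, -5.30, -5.49 and -5.55 in anti-Ly6G pools, -5.94, -5.84, -5.74 and -5.95 in KO pools and -6.31, -6.15, -6.32 and -5.84 in control pools. All 4 anti-Ly6G pools were above all KO and all control pools, and the KO pools overlapped only the highest control pool. The difference was 0.67 between anti-Ly6G and control and -0.38 between KO and anti-Ly6G (two-sided exact permutation p = 0.0286 in both, the smallest that 4 against 4 allows, 0.0429 after Benjamini-Hochberg adjustment over 3 comparisons). Between KO and control it was 0.29 (exact permutation p = 0.114, adjusted 0.114). In reads, there were 39.5 to 49.1 Mat1a reads for each Mat2a read in anti-Ly6G, 53.5 to 62.2 in KO and 57.4 to 80.2 in control pools.

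**Figure D2:**
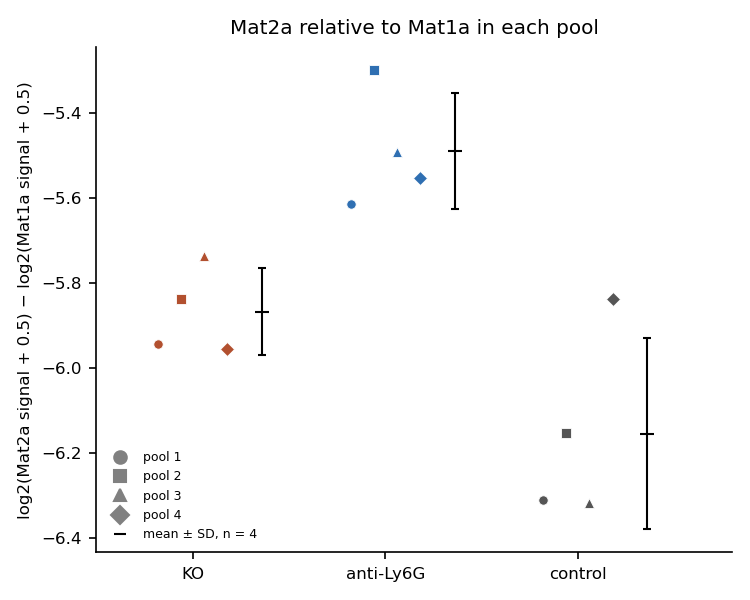
Difference between log2(Mat2a signal + 0.5) and log2(Mat1a signal + 0.5) in each KO, anti-Ly6G and control pool, with the mean and SD of each group. The anti-Ly6G pools lie between -5.61 and -5.30, above the KO pools (-5.95 to -5.74) and the control pools (-6.32 to -5.84).

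Gnmt and Nnmt encode enzymes that spend SAM. Gnmt (ENSMUSG00000002769), glycine N-methyltransferase, is abundant in hepatocytes and keeps the level of SAM in check by methylating glycine to sarcosine. It lies on the minus strand at chr17:46725664-46729168, overlaps Gm26904 on the other strand and has 100% unique words. Its upstream window at chr17:46729166-46729415, minus strand, holds 1 CCAAT, read on the minus strand at -62 to -58.
Gnmt: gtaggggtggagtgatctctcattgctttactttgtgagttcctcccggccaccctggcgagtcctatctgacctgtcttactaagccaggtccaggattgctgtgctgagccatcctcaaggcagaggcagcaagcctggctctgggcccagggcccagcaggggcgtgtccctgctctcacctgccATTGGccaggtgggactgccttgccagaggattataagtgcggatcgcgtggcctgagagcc
Gnmt had a signal of 1092, 952, 659 and 811 in KO pools, 1462, 1543, 1239.9 and 1574 in anti-Ly6G pools, and 1494, 953, 1129 and 855 in control pools. Every KO pool was below every anti-Ly6G pool, and the control pools spread over both. KO pools held 0.596 of the anti-Ly6G level (95% interval 0.459 to 0.774), a log2 difference of -0.75 (SE 0.17, adjusted p = 0.00722, limma). Against control neither group passed, with 0.42 in anti-Ly6G (95% interval 0.04 to 0.80, adjusted p = 0.0838, limma) and -0.33 in KO pools (-0.70 to 0.05, adjusted p = 0.331). The anti-Ly6G value against control depended on the pools and the fit: it was 0.57 without control pool 1 (adjusted p = 0.0190, limma), 0.31 without control pool 4 (adjusted p = 0.217) and 0.90 with the mitochondria label as a term (adjusted p = 0.0540). With KO pools 3 and 4 alone, which share the NZB label with the anti-Ly6G pools, Gnmt differed by -0.99 (adjusted p = 0.00734, limma). The KO pools of the NZB label averaged 735 and those of the C57 label 1022.

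Nnmt (ENSMUSG00000032271, chr9:48591877-48605153, minus strand, 100% unique words) methylates nicotinamide at the expense of SAM. Its signal was 151, 143, 109 and 141 in KO pools, 96.7, 101, 149 and 97.9 in anti-Ly6G pools, and 137, 107, 112 and 87.1 in control pools. All groups overlapped, and anti-Ly6G pool 3 stood apart from the other 3 pools of its group. The log2 difference from control was 0.30 in KO (95% interval -0.04 to 0.64, adjusted p = 0.322, limma) and -0.00 in anti-Ly6G pools (-0.34 to 0.34, adjusted p = 0.993). KO pools differed from anti-Ly6G pools by 0.30 (adjusted p = 0.170, limma), and by 0.45 (adjusted p = 0.0302) when anti-Ly6G pool 3 was left out.

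Ahcy (ENSMUSG00000027597), S-adenosylhomocysteine hydrolase, removes the product that inhibits methyltransferases and releases homocysteine. It lies on the minus strand at chr2:155059310-155074497 and overlaps Gm45609 on the other strand. Only 27.7% of its 25-base words are unique: 69.6% are shared with Gm4737, a near-identical copy that is annotated as protein coding, and 37.2% with the processed pseudogene Gm9826. How reads shared between copies were assigned is not given in the sources used here, so the level of Ahcy is uncertain. The upstream window at chr2:155074498-155074747, minus strand, holds a CCAAT read on the minus strand at -237 to -233 and a GGGCGG on the minus strand at -41 to -36.
Ahcy: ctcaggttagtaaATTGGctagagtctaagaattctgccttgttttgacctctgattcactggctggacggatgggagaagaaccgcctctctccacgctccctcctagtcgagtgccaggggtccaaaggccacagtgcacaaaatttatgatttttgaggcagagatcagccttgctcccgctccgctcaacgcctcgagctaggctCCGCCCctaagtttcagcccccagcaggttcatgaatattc
Ahcy had a signal of 1789.9, 1683, 1389 and 1901 in anti-Ly6G pools, 1876, 1616, 1374 and 1728 in KO pools, and 2799, 2143, 2682 and 1942 in control pools. Every anti-Ly6G and every KO pool was below the lowest control pool. The anti-Ly6G pools held 0.710 of the control level (95% interval 0.576 to 0.876), a log2 change of -0.49 (SE 0.14, adjusted p = 0.0176, limma). The KO pools held 0.693 of the control level (95% interval 0.562 to 0.854), a log2 difference of -0.53 (SE 0.14) that did not pass (adjusted p = 0.0757, limma), and KO and anti-Ly6G pools differed by -0.04 (95% interval -0.34 to 0.27, adjusted p = 0.872). Ahcy in KO passed in DESeq2 (adjusted p = 0.00804) and without control pool 4 (-0.62, adjusted p = 0.0383, limma). In anti-Ly6G it did not pass without control pool 1 (-0.41, adjusted p = 0.0531, limma) or without control pool 3 (-0.43, adjusted p = 0.0531), the pair of control pools with the highest Ahcy signal.

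Gm4737 was counted at 576, 601, 385 and 771 in anti-Ly6G pools, 761, 665, 516 and 582 in KO pools, and 1128, 844, 864 and 723 in control pools. It took 21.7% to 28.9% of the sum of both genes in anti-Ly6G, 25.2% to 29.2% in KO and 24.4% to 28.7% in control pools. The copy fell by 0.63 on the log2 scale in anti-Ly6G against control (adjusted p = 0.0232, limma) and differed by -0.49 between KO and control (adjusted p = 0.190). With both genes summed, Ahcy fell by 0.53 in anti-Ly6G (adjusted p = 0.0183, limma) and differed by -0.52 in KO pools (adjusted p = 0.0992), so the side of the threshold was the same as for Ahcy alone. The summed signal of anti-Ly6G pool 4 (2672) was just above that of control pool 4 (2665), so these groups overlapped in the sum.

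**Figure D3:**
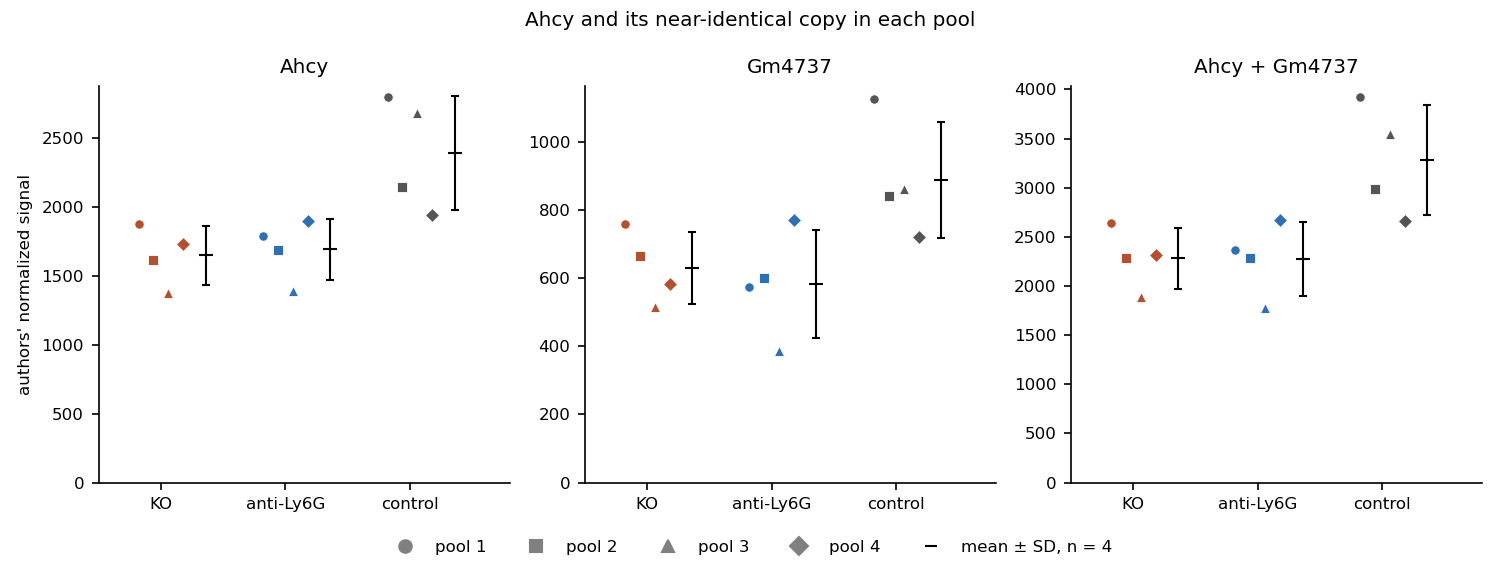
Authors' normalized signal (linear axes from 0) of Ahcy, of Gm4737 and of their sum in the KO, anti-Ly6G and control pools, with the mean and SD of each group. Ahcy is at 1901 or below in each KO and anti-Ly6G pool and at 1942 or above in each control pool, and Gm4737 follows with some overlap between groups.

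Homocysteine is methylated back to methionine by methionine synthase (Mtr), which uses folate and vitamin B12, or by betaine-homocysteine methyltransferase (Bhmt), which uses betaine, while Bhmt2 uses S-methylmethionine. None of the 3 passed in any of the 3 comparisons, and the pools of all groups overlapped in each. Mtr (ENSMUSG00000021311, chr13:12182712-12258113, minus strand) was measured from 49 to 127 reads per pool, with a signal of 3.88, 4.06, 5.28 and 5.17 in KO, 3.73, 5.27, 5.01 and 3.96 in anti-Ly6G and 4.22, 4.96, 3.86 and 5.09 in control pools. Its log2 difference from control was 0.02 in KO (95% interval -0.30 to 0.33, adjusted p = 0.966, limma) and -0.02 in anti-Ly6G pools (-0.33 to 0.29, adjusted p = 0.941), and KO and anti-Ly6G pools differed by 0.03 (adjusted p = 0.891).

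Bhmt (ENSMUSG00000074768, chr13:93616675-93637961, minus strand) shares 28.1% of its words with Gm5096 and 16.4% with Bhmt-ps1, and 68.1% are unique. Gm5096 had a signal of at most 22.5 in any pool, 0.305% of the sum at most. Bhmt had a signal of 7794, 5191, 4411 and 5359.7 in KO pools, 7213, 8000.3, 4973 and 5499 in anti-Ly6G pools, and 7283, 5830.1, 7346 and 4849 in control pools. The pools spread widely, by a CV of 25.7% in KO, 22.1% in anti-Ly6G and 19.1% in control pools. The log2 difference from control was -0.17 in KO (95% interval -0.60 to 0.27, adjusted p = 0.702, limma) and 0.02 in anti-Ly6G pools (-0.42 to 0.45, adjusted p = 0.962), and KO and anti-Ly6G pools differed by -0.18 (adjusted p = 0.539).

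Bhmt2 (ENSMUSG00000042118, chr13:93655720-93674302, minus strand, 86.3% unique words) lies close to Bhmt on the same strand. Its signal was 233, 207, 204 and 210.4 in KO pools, 211, 219.9, 187 and 221 in anti-Ly6G pools, and 234, 211, 232 and 199.6 in control pools. It was among the steadiest of the 10 genes, with a CV of 6.31% in KO, 7.68% in anti-Ly6G and 7.57% in control pools. The log2 difference from control was -0.04 in KO (95% interval -0.20 to 0.13, adjusted p = 0.838, limma) and -0.06 in anti-Ly6G pools (-0.23 to 0.10, adjusted p = 0.562), and KO and anti-Ly6G pools differed by 0.03 (adjusted p = 0.822).

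Transsulfuration takes homocysteine out of the cycle in a pair of steps: Cbs (cystathionine beta-synthase) joins it to serine, and Cth (cystathionine gamma-lyase) splits the product into cysteine. Cth (ENSMUSG00000028179, chr3:157894248-157925077, minus strand, 99.7% unique words) overlaps Gm43314 on the same strand. It had a signal of 591, 467, 389 and 287 in anti-Ly6G pools, 909, 549, 726 and 812 in KO pools, and 1248, 736, 1089 and 793 in control pools. Every anti-Ly6G pool was below the lowest control pool, while the KO pools overlapped both other groups. The anti-Ly6G pools held 0.444 of the control level (95% interval 0.319 to 0.619), a log2 change of -1.17 (SE 0.22, adjusted p = 0.00199, limma), the largest of the 10 genes in any of the 3 comparisons. KO pools were 1.76-fold above anti-Ly6G pools (95% interval 1.26 to 2.45, log2 0.81, adjusted p = 0.0164, limma). Between KO and control the log2 difference was -0.36 (95% interval -0.84 to 0.12, adjusted p = 0.406, limma), which did not pass.

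Cbs (ENSMUSG00000024039, chr17:31608894-31637238, minus strand, 90.9% unique words) had a signal of 315, 260.5, 405 and 357 in anti-Ly6G pools, 396, 366, 408 and 397 in KO pools, and 435, 329, 416 and 315 in control pools. All groups overlapped. The log2 difference from control was -0.17 in anti-Ly6G (95% interval -0.45 to 0.12, adjusted p = 0.358, limma) and 0.08 in KO pools (-0.20 to 0.36, adjusted p = 0.779), and KO and anti-Ly6G pools differed by 0.25 (adjusted p = 0.181). Of the transsulfuration pair, Cth passed in anti-Ly6G and Cbs did not, and the difference between the 2 genes was not tested.

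**Figure D4:**
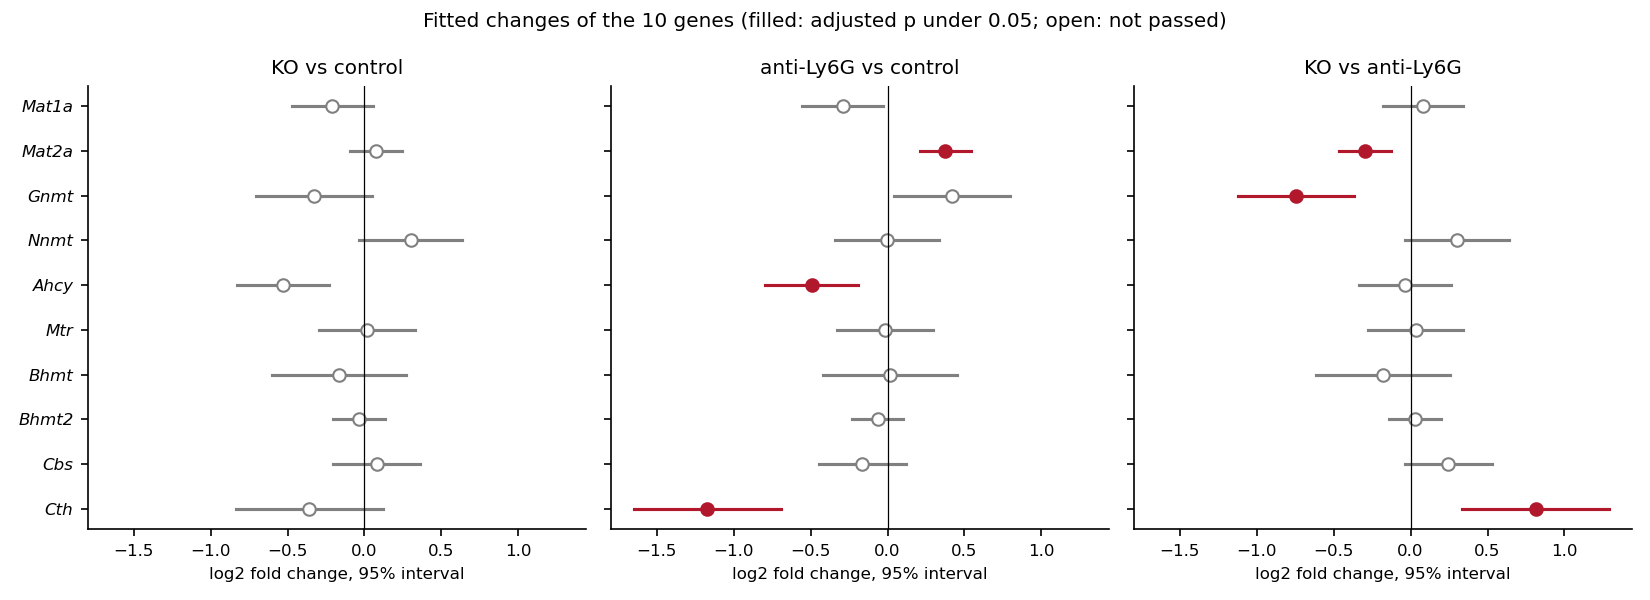
Fitted log2 fold change of each of the 10 genes with its 95% interval (limma, each interval unadjusted) in the 3 comparisons, filled where the adjusted p is under 0.05. No gene is filled in KO against control, while Cth stands at -1.17 and Mat2a at 0.38 in anti-Ly6G against control.

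The mitochondria label differed together with the antibody: all anti-Ly6G pools carried NZB and all control pools C57, and only the KO pools held both. No value within 1 label exists for anti-Ly6G against control. With the label as a term in the limma fit, which then rests on the KO pools, 0 of the 10 genes passed in that comparison, with Cth at -1.29 (adjusted p = 0.0608), Mat2a at 0.23 (adjusted p = 0.278) and Ahcy at -0.32 (adjusted p = 0.422). In that fit Gnmt stood at 0.90 (adjusted p = 0.0540, limma) and Bhmt at 0.40 (adjusted p = 0.466). KO pools of the NZB label averaged 139 for Mat2a, 1551 for Ahcy and 769 for Cth, and those of the C57 label averaged 126, 1746 and 729. Within the NZB label, KO pools 3 and 4 differed from the anti-Ly6G pools by 0.87 for Cth (adjusted p = 0.0399, limma) and by -0.22 for Mat2a (adjusted p = 0.118, not passed). Within the C57 label, KO pools 1 and 2 differed from control by -0.44 for Ahcy (adjusted p = 0.275, limma), by -0.09 for Gnmt (adjusted p = 0.870) and by 0.03 for Bhmt (adjusted p = 0.974), none of them passed.

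Genes around the cycle were read from 5 lists (folate one-carbon metabolism, choline oxidation, SAM use and methionine salvage, cysteine use, and serine synthesis with the amino acid response). None of the 86 genes measured in these lists passed between KO and control, beside 1.12% of all genes. The list medians in that comparison ran from -0.13 for serine synthesis and the amino acid response to 0.07 for SAM use. Between anti-Ly6G and control, where 30.4% of all genes passed, 23 of the 86 did, 12 higher and 11 lower. Between KO and anti-Ly6G, where 26.8% of all genes passed, 27 of the 86 did, 12 higher and 15 lower. In the counts by list that follow, higher and lower are said of genes that passed.

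Of 20 folate genes measured, 2 passed as higher and 2 as lower in anti-Ly6G than in control pools, with a median log2 difference of 0.11. Mtrr, which reactivates methionine synthase, averaged 9.34 ± 0.790 in anti-Ly6G and 6.79 ± 0.625 in control pools (SD, n = 4 each, log2 0.43, adjusted p = 0.00625, limma). Mthfd1, a cytosolic folate enzyme, averaged 156 ± 18.4 in anti-Ly6G and 204 ± 21.8 in control pools (-0.39, adjusted p = 0.00784), and Aldh1l2, a mitochondrial formyl-folate dehydrogenase, averaged 1.12 ± 0.149 in anti-Ly6G and 2.40 ± 0.302 in control pools (-0.84, adjusted p = 0.00132). Of 8 choline genes, 2 passed as higher and 3 as lower, with a median of -0.16. Dmgdh, which oxidizes the dimethylglycine left when Bhmt uses betaine, averaged 769 ± 124 in anti-Ly6G and 531 ± 80.1 in control pools (0.53, adjusted p = 0.0111, limma). The sarcosine oxidizing enzymes Sardh and Pipox were both lower, at 406 ± 76.6 and 88.0 ± 9.89 in anti-Ly6G pools and at 655 ± 81.6 and 138 ± 15.8 in control pools (-0.70 and -0.64, adjusted p = 0.00376 and 0.00157).

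Of 23 genes of SAM use and methionine salvage, 3 passed as higher in anti-Ly6G than in control pools and 0 as lower, with a median of 0.08. Among these were Tpmt, a thiol methyltransferase, at 49.5 ± 11.1 in anti-Ly6G and 28.7 ± 2.97 in control pools (0.76, adjusted p = 0.00219, limma), and Mtap, which starts methionine salvage, at 34.9 ± 3.58 and 22.7 ± 3.13 in these groups (0.62, adjusted p = 0.00317). Of 18 genes of cysteine use, 3 passed as higher and 1 as lower, with a median of 0.09. Gss, glutathione synthetase, averaged 107 ± 7.87 in anti-Ly6G and 79.0 ± 3.79 in control pools (0.43, adjusted p = 0.000730, limma). Tstd1, a thiosulfate sulfurtransferase, averaged 26.0 ± 1.96 in anti-Ly6G and 12.4 ± 3.63 in control pools (1.07, adjusted p = 0.000412), and Got1, cytosolic aspartate aminotransferase, averaged 491 ± 46.8 in anti-Ly6G and 915 ± 287 in control pools (-0.85, adjusted p = 0.00238).

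Of 17 genes of serine synthesis and the amino acid response, 2 passed as higher and 5 as lower in anti-Ly6G than in control pools, with a median of -0.19. Trib3 and Ppp1r15a, targets of the stress-induced factors of the ATF4 pathway, averaged 14.2 ± 2.96 and 11.3 ± 0.770 in anti-Ly6G pools and 27.5 ± 5.43 and 17.4 ± 2.41 in control pools (-0.93 and -0.59, adjusted p = 0.00131 and 0.000639, limma). Vldlr, a lipoprotein receptor, averaged 12.6 ± 2.75 in anti-Ly6G and 2.38 ± 0.614 in control pools (2.20, adjusted p = 3.69e-06). The other gene that passed as higher was Fgf21, a liver hormone and also a target of ATF4, which averaged 39.4 ± 5.26 in anti-Ly6G and 18.8 ± 3.30 in control pools (1.05, adjusted p = 0.00257, limma). It lies outside the naming rule and was named after its values were seen. Of 11 periportal genes, 1 passed as higher and 5 as lower, with a median of -0.44 and sums of 12129 to 15658 in anti-Ly6G and 16413 to 22823 in control pools. Of 11 pericentral genes, 2 passed as higher and 1 as lower, with a median of 0.12. Between KO and control 0 genes of either zone list passed, beside 1.12% of all genes. The medians there were -0.22 (periportal) and 0.08 (pericentral), and the periportal sums of KO pools were 15097 to 17796. The part of liver zones in the change of Cth or Ahcy was not tested.

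**Figure D5:**
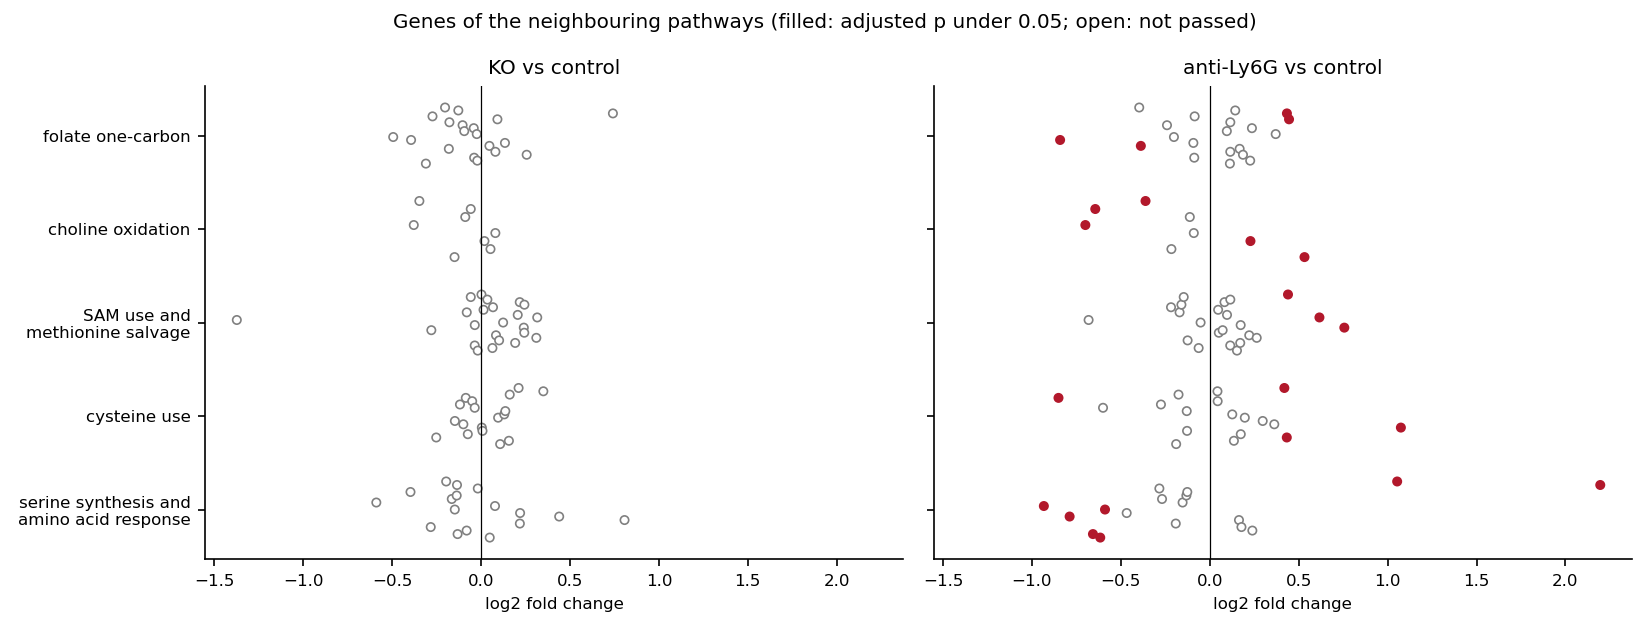
Log2 fold change of each measured gene of the 5 neighbouring lists in KO against control and in anti-Ly6G against control, filled where the limma adjusted p is under 0.05. No gene is filled in KO against control, and in anti-Ly6G against control each list holds filled points, with Vldlr at 2.20 farthest to the right.

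The genes whose levels moved most like Cth over the 12 pools were Cyp4a32, Got1 and Fam116b, with a root mean square difference from Cth of 0.27, 0.28 and 0.29 on the log2 scale after each gene was centred on its own mean. Cth itself had an SD of 0.61 over the same 12 pools. For Mat2a they were Crk, Rock2 and Cmpk1, at 0.06, 0.06 and 0.07, against an SD of 0.20 for Mat2a. These figures describe the 12 pools, which include the group differences.

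Within the control group, pools 1 and 3 were the pair with the highest signal for 8 of the 10 genes (Mat1a, Gnmt, Nnmt, Ahcy, Bhmt, Bhmt2, Cbs and Cth), while 18.6% of all genes had that pair on top. The pair was singled out after the values were seen. The summed signal of the hepatocyte markers was also highest in these pools, at 128638 and 126156, against 116593 and 110371 in control pools 2 and 4. The periportal sum was 22823 and 19786 in control pools 1 and 3, against 16804 and 16413 in control pools 2 and 4. The deposited signal over all genes likewise totalled 1.04 M in each of control pools 1 and 3, against 0.997 and 0.953 M in control pools 2 and 4. The part of these totals in the 8 genes was not tested.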

How the data were processed

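The table deposited by the authors gives, for 12 liver RNA-seq pools, a normalized signal of each gene, and its columns sum to 0.922 M to 1.06 M. Per the submitters' processing notes, Bowtie2 2.0.6, RSEM 1.2.3, cutadapt 1.2.1, edgeR and the build GRCm38 were used. Of their roles, the annotation, the gene filter and the strand setting, none is stated in the labels. In every column 100% of values were whole multiples, within 0.01, of the value of 1 read, and these multiples were taken as reads; a stricter check of the low values passed in 4 columns.

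Tests were limma-trend fits (limma 3.58.1, R 4.3.3) on log2(signal + 0.5), group as the only term, all 12 pools, two-sided, Benjamini-Hochberg over 11791 genes at 0.05. Fold changes are on that scale, which understates changes of low genes. A filter asking for a mean of at least 1 in 1 group removed 0 genes. The script was tested on simulated data with 200 changed genes. On the recovered reads edgeR 4.0.16 called 153, 3558 and 3169 genes, and DESeq2 1.42.0 called 577, 3789 and 3434 (KO against control, anti-Ly6G against control, KO against anti-Ly6G), beside 132, 3580 and 3157 in limma. Gene positions, transcript lengths and 25-base words came from GENCODE vM21 on GRCm38 (11672 of 11791 IDs found), and promoter windows from RefSeq on GRCm38.p6.

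The 10 genes, the lists and the tests were chosen with earlier results of these data known. All 10 genes are named, with the 3 called genes of lowest p per pathway list (1 of these genes is not reported here) and the 3 nearest patterns of the 2 genes of lowest p in anti-Ly6G against control. Replicate numbers were not used to pair the pools in the main fit. The hand-chosen marker lists covered hepatocytes, liver zones, neutrophils, macrophages, stellate cells and fibroblasts, endothelium, bile duct and lymphocytes. In anti-Ly6G against control, 3 of 7 endothelial markers passed as lower, beside 15.3% of all genes. So did 2 of 2 bile duct markers measured (Spp1 and Sox9) and 1 of 1 lymphocyte marker measured. That marker was Cd79a, at a low mean signal of 1.03 in anti-Ly6G and 2.82 in control pools. Alternatives were other pseudocounts, filters, scalings and tools, a replicate block, the mitochondria label and leaving out each pool. Summing Ahcy with Gm4737 and Bhmt with Gm5096 was added after seeing the data.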

Additional observations from a re-analysis of the deposited data

Results flagged for a closer look

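Nnmt in anti-Ly6G pool 3 had a signal of 149, far from the other pools of its group, of which the nearest stood at 101 and the lowest at 96.7. The gap to the nearest pool was 0.908 of the group's range, above Dixon's 95% critical value for 4 pools. It was the only 1 of 33 groups tested (the 10 genes and the Mat2a minus Mat1a difference, each in 3 groups) to pass that limit, and chance gives about 1 in 20. The hepatocyte markers of the same pool summed to a signal of 104249, against 131470 to 142244 in the other 3 anti-Ly6G pools. That pool was also the lowest of its group for Gnmt, Ahcy, Bhmt and Bhmt2 and the highest for Cbs (405). The part of these differences in the Nnmt value was not tested.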

How the results depend on the processing

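Between KO and control the 132 genes called became 577 in DESeq2, 20 with a replicate block, 79 with the mitochondria label as a term, 58 with KO pools 1 and 2 only, and 3 (without control pool 2) to 319 (without control pool 4) when 1 pool was left out. Of the 10 genes, 1 (Ahcy) passed in DESeq2 and 0 to 1 when 1 pool was left out. Between anti-Ly6G and control 973 genes were called with the label as a term, beside 3580 in the main fit, and 0 of the 10 passed. Between KO and anti-Ly6G, 2041 genes were called with KO pools 3 and 4 alone, beside 3157 in the main fit. All these counts are totals under each setting, not genes kept from the main fit.

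Leaving out 1 pool moved the Mat2a minus Mat1a difference to between 0.60 and 0.77 in anti-Ly6G against control, where the exact permutation p was 0.0571 whichever anti-Ly6G pool was left out. The remaining anti-Ly6G pools were then still all above every control pool, of which pool 4 (-5.84) was the nearest. That p was not the smallest possible, since a split of 3 against 4 pools can give 0.0286. The difference moved to between 0.23 and 0.39 in KO against control, where the exact permutation p was 0.0286 without control pool 4. Cth and Gnmt passed between KO and anti-Ly6G under all 19 alternatives, at 0.63 to 0.98 and -0.99 to -0.62. In anti-Ly6G against control, Cth (-1.34 to -0.99) and Mat2a (0.23 to 0.43) passed under 17 of 18, and Ahcy (-0.59 to -0.32) under 15. Mat2a between KO and anti-Ly6G did not pass when every pool was rescaled to the same total (-0.19, adjusted p = 0.169, limma). The cause of these shifts was not tested.

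Rescaling moved the median of all genes by 0.11 between KO and anti-Ly6G, 0.06 between KO and control and -0.04 between anti-Ly6G and control. It turned the calls to 2333 higher and 701 lower (1608 and 1549 as deposited), to 123 and 37 (69 and 63) and to 1267 and 1977 (1775 and 1805). The mean filter of 5 removed Mtr, which therefore has no value there.

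Deviations of pools with the same number correlated weakly (0.0109 to 0.129 between KO and control, -0.108 to 0.0188 between anti-Ly6G and control, -0.209 to 0.172 between KO and anti-Ly6G). With the replicate block, 3445 genes passed between anti-Ly6G and control and 2984 between KO and anti-Ly6G, and the same 3 of the 10 genes passed in each. In KO against control 3 of the 4 KO pools correlated best with the control pool of their own number, a hint from the data and not the design. Depth limits Mtr most, which rests on 49 to 127 reads per pool.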
